A study of Mus musculus with 2 samples.

Results

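Immune checkpoint genes encode the receptors on T cells that damp activation and the surface proteins that engage them. The account covers 10 of them, taken by gene symbol from the 20003 genes of the deposited table. They were 5 receptors (Pdcd1, Ctla4, Lag3, Havcr2 and Tigit) and 5 ligands of the B7 family (Cd274, Pdcd1lg2, Cd80, Cd86 and Cd276). Messenger RNA had been sequenced in 2 libraries of mouse cells labelled RAW 264.7, a macrophage line. Cells of either library were given M-CSF (macrophage colony-stimulating factor, 20 ng/mL) overnight and then IL-4 (interleukin 4, 10 ng/mL), which drives the alternative or M2 state. The series set them side by side to read what a Hedgehog inhibitor does to macrophage RNA. The library labelled M2+GANT61, here called the GANT61 library, was from cells that also received GANT61, an inhibitor of the GLI transcription factors of Hedgehog signalling, at 10 µM, 4 h ahead of IL-4. The library labelled M2+DMSO, here called the DMSO library, was from cells that received the solvent DMSO at that point. The labels' protocols put the time with IL-4 at 15 min in one place and at 24 h in another. No genotype, passage or clone was stated.

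PD-1 (gene Pdcd1) and CTLA-4 (gene Ctla4) are the checkpoint receptors best known as drug targets. PD-1 is engaged by PD-L1 (Cd274) and PD-L2 (Pdcd1lg2), which macrophages and dendritic cells can display. CD80 and CD86 are shared ligands of the activating receptor CD28 and of CTLA-4, which binds them more tightly. LAG-3 binds MHC class II, TIM-3 (Havcr2) has several partners including galectin-9, and TIGIT binds the poliovirus receptor Pvr and its nectin relatives. B7-H3 (Cd276) is found on many non-immune cells. In textbook accounts interferon gamma induces Cd274, and IL-4 through STAT6 induces Pdcd1lg2.

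The 250 bases before the listed start of Pdcd1lg2, Cd274 and Pdcd1 are shown because PD-1 and its ligands held both the highest and the lowest ratios of the set. They come from RefSeq (GRCm38.p6), run 5′ to 3′ on the gene's strand, and carry in capitals the only match, on either strand, to any of the 3 patterns searched.
Pdcd1lg2 promoter, chr19:29410669-29410918, plus strand: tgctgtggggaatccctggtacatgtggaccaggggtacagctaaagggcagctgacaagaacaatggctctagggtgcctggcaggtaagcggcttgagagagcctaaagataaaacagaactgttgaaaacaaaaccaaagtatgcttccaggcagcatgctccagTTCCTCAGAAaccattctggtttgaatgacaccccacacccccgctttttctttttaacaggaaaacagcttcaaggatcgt
Cd274 promoter, chr19:29367188-29367437, plus strand: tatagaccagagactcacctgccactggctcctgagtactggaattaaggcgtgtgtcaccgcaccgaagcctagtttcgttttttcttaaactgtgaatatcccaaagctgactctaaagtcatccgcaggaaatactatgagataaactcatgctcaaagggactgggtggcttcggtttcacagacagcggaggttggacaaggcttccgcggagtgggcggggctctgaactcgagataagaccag
Pdcd1 promoter, chr1:94052554-94052803, minus strand: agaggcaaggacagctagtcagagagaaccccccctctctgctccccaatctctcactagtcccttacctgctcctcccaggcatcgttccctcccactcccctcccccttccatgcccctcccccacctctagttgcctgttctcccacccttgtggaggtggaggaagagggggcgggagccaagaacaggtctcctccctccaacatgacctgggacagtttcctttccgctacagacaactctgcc

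The match was in Pdcd1lg2 and lay 82 to 73 bases before the start. It matched the STAT6 pattern TTCNNNNGAA, which 5.85% of 32851 windows of that length held. The other patterns were GACCACCCA for GLI, held by 0.225% of windows, and GAAANNGAAA for interferon regulatory factors, held by 2.98%. Of the 10 genes, 8 had a window, and the letters of these 2 patterns were in 0 of them. Cd276 had the window richest in G and C among the 8, at 77.6%, with 29 CG pairs, against medians of 52.4% and 6 over all windows. A match describes letters only. The Cd274 window lies inside the RefSeq span of the gene (chromosome 19, 29362107 to 29388095, plus strand), which has an earlier start. The windows of Cd80 and Tigit likewise lie inside the spans of their genes, so bases before those earlier starts were not searched.

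The libraries held 61632784 reads (DMSO) and 57705874 reads (GANT61) over the listed genes. All 12 macrophage markers examined were at or above 10 CPM in both libraries, where CPM is a count scaled to library size after TMM (trimmed mean of M values) adjustment. So were 11 of 14 T cell markers, and the lowest of the 14 was at 6.81 CPM, although a macrophage line has no T cell receptor complex. Fibroblast, endothelial, epithelial, adipocyte and B cell markers were present too. The label RAW 264.7 is therefore used only as a name, and which cells carried each checkpoint gene was not measured. In such bulk RNA a difference in the number of cells of a type and a difference in RNA per cell cannot be told apart.

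With 1 library per treatment no difference has a replicate check, and the treatments are compared without tests or p-values. Ratios are GANT61 over DMSO, with a 95% exact binomial interval in brackets that covers counting error only. Calls of higher or lower were made by size: a ratio of at least 1.5 or at most its inverse, an interval without 1, and a mean of at least 1 CPM. All 10 checkpoint genes passed that floor. Of these, 7 were called higher, 1 was called lower and 2 were neither. Among the 13939 genes of at least 1 CPM, 14.1% were called higher and 10.3% lower. The median log2 ratio was 0.90 over the 10 genes and -0.01 over all 13939. With counts scaled instead so that the median macrophage marker did not differ, every log2 ratio dropped by 0.92. Then 2 of the 10 genes were called higher and 3 lower, Cd86, Havcr2 and Lag3 fell below 1, and the shares over all genes were 3.19% and 76.4%.

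**Figure D1:**
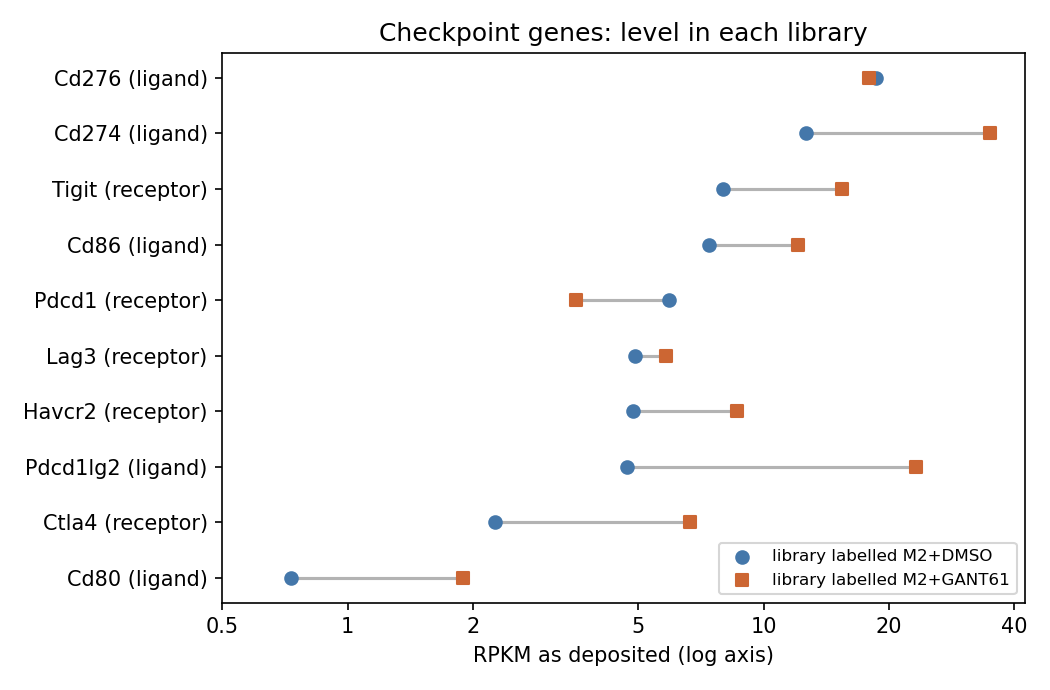
Deposited RPKM of the 10 checkpoint genes on a log axis, with circles for the library labelled M2+DMSO, squares for the library labelled M2+GANT61 and a line joining the values of each gene. Pdcd1lg2 has the longest line, from 4.70 to 23.2 RPKM, and Pdcd1 and Cd276 are the genes whose square lies to the left.

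Levels can be compared between genes only per length, so the deposited RPKM values (reads scaled by gene model length and library total) were used for their order. In the DMSO library Cd276 stood first at 18.6 RPKM and Cd274 second at 12.6. Tigit at 7.99 and Cd86 at 7.39 followed, with overlapping counting intervals (7.37 to 8.65 and 7.02 to 7.77). Pdcd1 was at 5.92 RPKM, above Lag3 at 4.92, Havcr2 at 4.85 and Pdcd1lg2 at 4.70, whose intervals overlapped one another. Ctla4 at 2.26 and Cd80 at 0.731 RPKM were lowest.

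In the GANT61 library the order differed. Cd274 stood first at 35.0 RPKM, Pdcd1lg2 second at 23.2 and Cd276 next at 17.9. Pdcd1lg2 had thus moved from rank 8 to rank 2 and Pdcd1 from rank 5 to rank 9, at 3.53 RPKM. Tigit at 15.4, Cd86 at 12.1 and Havcr2 at 8.61 RPKM followed, with no overlap between neighbours. Ctla4 was at 6.64 and Lag3 at 5.82 RPKM, with intervals that met (6.22 to 7.08 and 5.43 to 6.22). Cd80 was last in this library also, at 1.90 RPKM.

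**Figure D2:**
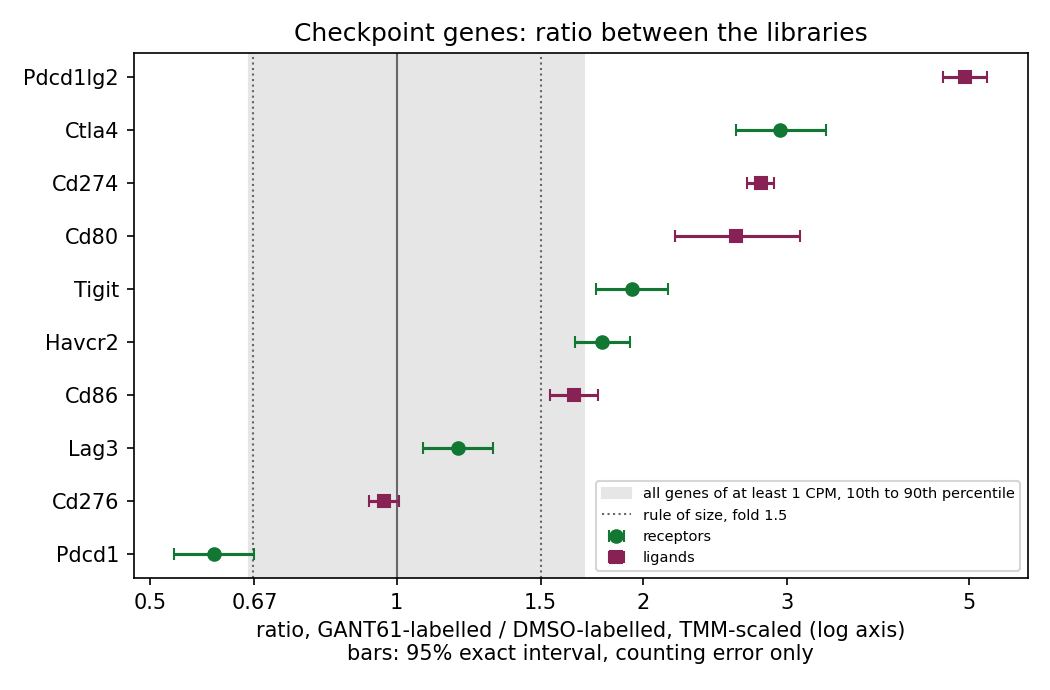
GANT61 over DMSO ratio for each checkpoint gene on a log axis, with bars for the 95% exact counting interval, dotted lines at a fold of 1.5 either way and a grey band from the 10th to the 90th percentile of all genes of at least 1 CPM. Pdcd1lg2 is farthest right at 4.95, Cd276 and Lag3 lie between the dotted lines, and Pdcd1 is farthest left at 0.599; scaled to macrophage markers, Cd86, Havcr2 and Lag3 would fall below 1.

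The PD-1 ligands were both higher in the GANT61 library, and their receptor was lower. Cd274, which encodes PD-L1, had 3617 reads in the DMSO library and 9149 in the GANT61 library, or 57.8 and 161 CPM. Its ratio was 2.79 (2.68 to 2.90), and 471 of the 13939 genes had a larger one. Scaled to macrophage markers it was 1.47 and no longer called. Pdcd1lg2, which encodes PD-L2, had 1267 and 5694 reads, or 20.2 and 100.2 CPM. Its ratio was 4.95 (4.66 to 5.26), with 136 genes above it. Pdcd1, the receptor, had 902 and 490 reads, or 14.4 and 8.62 CPM, a ratio of 0.599 (0.535 to 0.669).

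Within a library these genes can be set against each other without any scaling. Per 100 reads of Cd274 there were 35.0 reads of Pdcd1lg2 in the DMSO library and 62.2 in the GANT61 library, so their proportion differed 1.78-fold (1.65 to 1.91). By RPKM, Cd274 was 2.13 times the level of Pdcd1 in the DMSO library and 9.91 times in the GANT61 library. Pdcd1lg2 was 0.794 and 6.57 times the level of Pdcd1. PD-L2 thus had less transcript than its receptor in the DMSO library and more in the GANT61 library.

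Cd274 and Pdcd1lg2 are neighbours on mouse chromosome 19, on the plus strand and 22824 bases apart (GRCm38.p6). Pdcd1lg2 spans 29410919 to 29472927. The next gene beyond it, Ric1, a vesicle transport factor, had a ratio of 1.61 (1.53 to 1.71) and was also called higher. On the other side Plgrkt, a plasminogen receptor on the opposite strand, had a ratio of 1.09 (1.02 to 1.17). Plgrkt overlaps the span of Cd274 by 5186 bases, and the strand setting of the counting was not given, so reads in the overlap may not have been told apart.

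The CD28 and CTLA-4 ligands Cd80 and Cd86 were both higher by the rule of size, Cd86 close to its threshold and, when scaled to macrophage markers, at 0.870. Cd80 had 183 and 433 reads, or 2.92 and 7.62 CPM, a ratio of 2.60 (2.19 to 3.11), or 1.37 and not called when scaled to macrophage markers. It was the least abundant of the 10 genes, and its interval was the widest relative to its ratio. Cd86 had 1480 and 2213 reads, or 23.6 and 38.9 CPM, a ratio of 1.65 (1.54 to 1.76). By RPKM Cd80 was at 0.0989 of the level of Cd86 in the DMSO library and 0.157 in the GANT61 library, a proportion that differed 1.58-fold (1.31 to 1.91).

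Cd276, the ligand found on many non-immune cells, was neither higher nor lower. It had 4679 and 4095 reads, or 74.8 and 72.1 CPM, a ratio of 0.964 (0.924 to 1.01). Of the 5 ligands it was the only one not called. Per 100 reads of Cd274 there were 129 reads of Cd276 in the DMSO library and 44.8 in the GANT61 library. Scaled to macrophage markers its ratio was 0.509 (0.488 to 0.531), which was called lower.

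Among the receptors, Ctla4, Tigit and Havcr2 were higher, Lag3 was neither and Pdcd1 was lower, while Havcr2 was at 0.942 when scaled to macrophage markers. Ctla4 had 345 and 923 reads, or 5.51 and 16.2 CPM, a ratio of 2.94 (2.60 to 3.34). Its deposited counts were not whole numbers, unlike those of the other 9 genes, and how its reads were assigned was not given. Such counts were common, at 29.8% of the 20003 listed genes in the DMSO library and 29.5% in the GANT61 library. Tigit had 607 and 1069 reads, or 9.70 and 18.8 CPM, a ratio of 1.94 (1.75 to 2.15), or 1.02 and not called when scaled to macrophage markers. The RefSeq span of Tigit overlaps Zbtb20, a transcriptional repressor on the opposite strand, by 8256 bases, and Zbtb20 was lower at 0.580 (0.488 to 0.686).

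Havcr2, the TIM-3 receptor that myeloid cells carry as well as T cells, had 1042 and 1688 reads, or 16.6 and 29.7 CPM. Its ratio was 1.78 (1.65 to 1.93). Lag3 had 777 and 838 reads, or 12.4 and 14.7 CPM, a ratio of 1.19 (1.08 to 1.31) whose interval lay above 1 but under the fold threshold. Scaled to macrophage markers, Lag3 was at 0.628 (0.569 to 0.693) and called lower. Ctla4 was above 1 and Pdcd1 below it under every scaling run. Per 100 reads of Ctla4 there were 261 reads of Pdcd1 in the DMSO library and 53.1 in the GANT61 library.

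The receptors were next read beside the T cell markers of the same libraries. Of 14 such markers 2 were called higher and 0 lower, the median log2 ratio was 0.29, and their summed level was 324 CPM in the DMSO library and 383 CPM in the GANT61 library. Cd3e, a signalling chain of the T cell receptor, had a ratio of 0.997 (0.905 to 1.10) and Cd3g of 0.948 (0.892 to 1.01). Cd4, the helper T cell coreceptor that some macrophages also carry, was higher at 2.36 (2.19 to 2.54). Cd5, a T cell surface receptor, was the other marker called, at 1.53 (1.35 to 1.73). The killer T cell coreceptors Cd8a and Cd8b1 had ratios of 0.721 (0.674 to 0.771) and 0.721 (0.653 to 0.795), short of the threshold.

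Set against the summed T cell markers, Lag3 was level, Ctla4, Tigit and Havcr2 were higher and Pdcd1 was lower. The ratio relative to that sum was 1.01 (0.909 to 1.11) for Lag3, 2.49 (2.20 to 2.83) for Ctla4, 1.64 (1.48 to 1.82) for Tigit, 1.51 (1.39 to 1.64) for Havcr2 and 0.506 (0.452 to 0.567) for Pdcd1. Thy1, the most abundant of the 14 markers, gave 114 CPM (DMSO) and 142 CPM (GANT61) of the sum of 324 and 383 CPM. Its ratio was 1.24 (1.20 to 1.28), and which cells carried it was not measured. The summed markers cover every kind of T cell, so these values do not separate subsets. Whether a shift between T cell subsets took part was not tested.

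**Figure D3:**
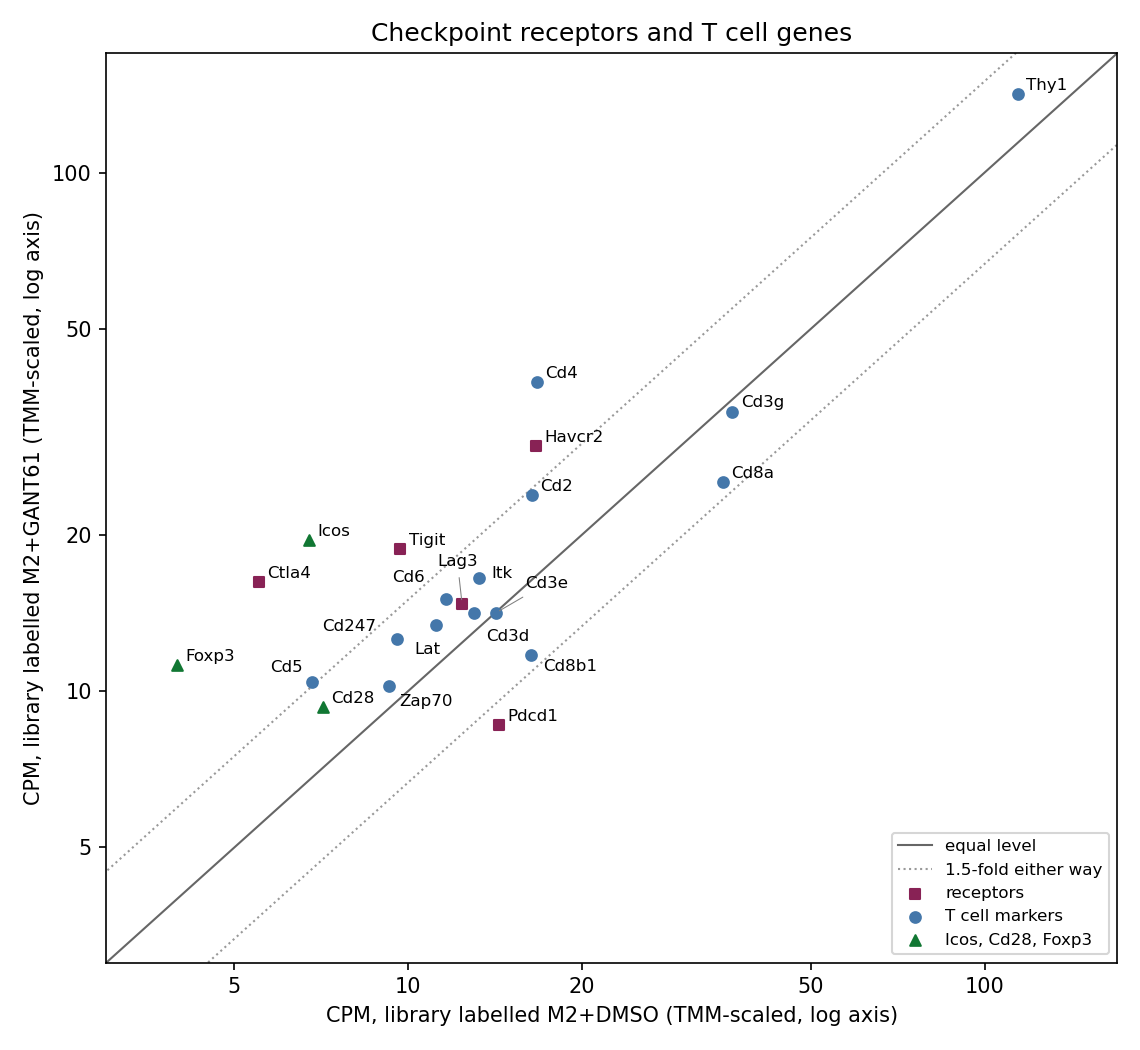
Level of the 5 checkpoint receptors (squares), 14 T cell markers (circles) and Icos, Cd28 and Foxp3 (triangles) in the DMSO library against the GANT61 library, in TMM-scaled CPM on log axes, with a solid line for equal levels and dotted lines at a fold of 1.5. Ctla4, Icos, Foxp3, Tigit, Havcr2 and Cd4 lie clearly above the upper dotted line, Cd5 just above it, most T cell markers lie between the lines, and Pdcd1 lies below the lower one; scaled to macrophage markers, Havcr2 would move to 0.942 and Lag3 to 0.628.

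Icos and Foxp3, genes of regulatory T cells, had ratios close to that of Ctla4, whereas Ikzf2, another gene of those cells, was at 1.10 (1.02 to 1.19). Ctla4 lies on chromosome 1 at 60909025 to 60915832 between Cd28 and Icos. Icos, the costimulatory receptor of helper and regulatory T cells, had 421 and 1113 reads, a ratio of 2.91 (2.60 to 3.26). Cd28, the activating counterpart of Ctla4, had 446 and 529 reads, a ratio of 1.31 (1.15 to 1.48), which was not called. Foxp3, the transcription factor that defines regulatory T cells, had 249 and 639 reads, a ratio of 2.82 (2.44 to 3.29). Scaled to macrophage markers, Icos was at 1.54 and still called higher, and Foxp3 was at 1.49 and not called. Per 100 reads of Cd28 there were 77.4 reads of Ctla4 in the DMSO library and 174 in the GANT61 library, a proportion that differed 2.25-fold (1.88 to 2.70).

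In a list of 12 transcription factors of regulatory and exhausted T cells, 4 were called higher and 0 lower, with a median log2 ratio of 0.31. Besides Foxp3 these were Prdm1, a factor of terminal lymphocyte states, at 2.95 (2.74 to 3.18), Nr4a3, an early response nuclear receptor, at 2.08 (1.80 to 2.42), and Batf, an AP-1 partner, at 1.92 (1.73 to 2.13). Tox and Tox2, factors of exhausted T cells, had ratios of 0.724 (0.573 to 0.910) and 0.695 (0.546 to 0.881), neither of them called. Prdm1, Nr4a3 and Batf are also expressed outside T cells.

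The 5 ligands were next read beside macrophage and leukocyte markers. Of 12 macrophage markers 11 were called higher and 0 lower, with a median log2 ratio of 0.92 and a summed level of 3482 and 7205 CPM. Of 6 general leukocyte markers 4 were called higher, with a median of 0.92 and a sum of 973 and 1811 CPM. Relative to the macrophage sum Pdcd1lg2 remained 2.39-fold higher (2.25 to 2.54), Cd274 1.35-fold (1.29 to 1.40) and Cd80 1.26-fold (1.06 to 1.51). Cd86 was at 0.796 (0.745 to 0.851) and Cd276 at 0.466 (0.446 to 0.486) of its proportion in the DMSO library. The part of the macrophage share in these ratios was not tested.

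The receptors fell on both sides by the same measure. Relative to the macrophage sum Ctla4 was at 1.42 (1.26 to 1.62), Tigit at 0.937 (0.848 to 1.04), Havcr2 at 0.862 (0.798 to 0.933), Lag3 at 0.574 (0.520 to 0.634) and Pdcd1 at 0.289 (0.258 to 0.323). Against all genes and against the macrophage, leukocyte and T cell sums, Pdcd1lg2, Ctla4, Cd274 and Cd80 were above 1. Pdcd1 and Cd276 were below 1 against each, although the interval of Cd276 against all genes (0.924 to 1.01) included 1. Dendritic cell markers, the other likely source of Cd80, Cd86 and Pdcd1lg2, had 5 of 12 called higher and 0 lower, and a sum of 455 and 612 CPM. Relative to that sum Pdcd1lg2 was at 3.68 (3.45 to 3.92), Cd80 at 1.94 (1.62 to 2.32) and Cd86 at 1.22 (1.14 to 1.31). Fscn1, an actin-bundling protein also made outside dendritic cells, gave 263 and 221 CPM of that sum. Without it the sum was 192 and 391 CPM, and Pdcd1lg2 was at 2.43 (2.27 to 2.59), Cd80 at 1.28 (1.07 to 1.53) and Cd86 at 0.807 (0.752 to 0.866).

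**Figure D4:**
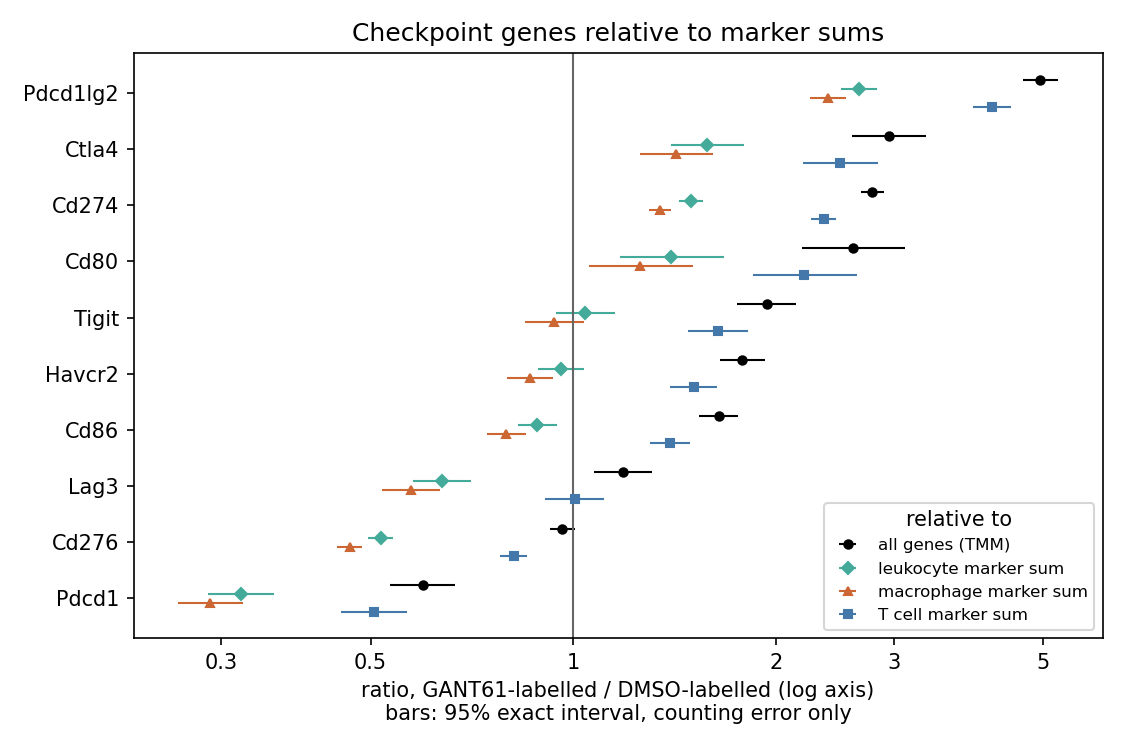
GANT61 over DMSO ratio for each checkpoint gene on a log axis, relative to all genes by TMM (circles), to summed leukocyte markers (diamonds), to summed macrophage markers (triangles) and to summed T cell markers (squares), with bars for the 95% exact counting interval. Pdcd1lg2, Ctla4, Cd274 and Cd80 stay right of 1 and Pdcd1 and Cd276 stay left of it in all 4, whereas Cd86, Havcr2 and Lag3 cross 1 with the leukocyte and macrophage sums and Tigit with the macrophage sum.

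By the median of each list, markers of other tissue cells were lower or near level in the GANT61 library. Of 8 adipocyte markers 0 were called higher and 8 lower, with a median log2 ratio of -2.69 and a sum of 5235 CPM in the DMSO library and 781 CPM in the GANT61 library. Of 8 endothelial markers 3 were called lower, with a median of -0.42 and a sum of 617 and 523 CPM. Fibroblast markers had a median of 0.18, with 1 of 8 called higher and 0 lower. Epithelial markers had a median of -0.04, with 2 of 8 called higher and 1 lower. The part of these cells in the checkpoint ratios was not tested.

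The partners of the other receptors were mixed. A list of 18 measured genes held mainly binding partners and relatives of Lag3, Havcr2 and Tigit. It also held Rgmb, Cmtm4 and Cmtm6, which are linked to the PD-1 ligands instead. Of the 18, 16 reached 1 CPM, 6 were called higher and 1 lower, with a median log2 ratio of 0.28. Pvr, the main ligand of Tigit, was higher at 1.71 (1.60 to 1.84), and Nectin1 was higher at 1.63 (1.51 to 1.76). Both fell below 1 when scaled to macrophage markers, at 0.905 and 0.862. Nectin3, a further nectin, was lower at 0.501 (0.453 to 0.554). Cd226, the activating receptor that competes with Tigit for Pvr, had a ratio of 1.13 (0.997 to 1.28). Tigit was 3.15 times the RPKM level of Cd226 in the DMSO library and 5.41 times in the GANT61 library.

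Galectin-9 (Lgals9), a partner of TIM-3, had a ratio of 0.857 (0.835 to 0.879), whereas galectin-3 (Lgals3), which can bind LAG-3 and is abundant in macrophages, was higher at 1.88 (1.85 to 1.92). Clec4g, another LAG-3 partner, was higher at 1.84 (1.36 to 2.53) on 68 and 114 reads. Havcr1, a relative of TIM-3, was higher at 2.66 (1.95 to 3.72) on 56 and 136 reads. With macrophage marker scaling Lgals3 was at 0.995, Clec4g at 0.973 and Havcr1 at 1.41, none of them called. Fgl1, a secreted LAG-3 ligand, had 0 and 1 reads.

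In a list of other B7 and CD28 family genes and some receptors outside these families, 3 of 10 were called higher and 0 lower. Its median log2 ratio was 0.43. The called genes were Icos, of the CD28 family, and 2 from outside. These were Treml2, a myeloid receptor, at 1.86 (1.71 to 2.02) and Cd101, an inhibitory receptor, at 1.66 (1.41 to 1.97). Treml2 and Cd101 fell to 0.981 and 0.879 when scaled to macrophage markers. Other inhibitory axes had 12 of 18 called higher and 0 lower, with a median of 0.87. Tdo2, Ido1 and Ido2, enzymes that break down tryptophan, had ratios of 4.91 (3.80 to 6.50), 2.80 (2.58 to 3.04) and 2.41 (1.95 to 3.02). The myeloid inhibitory receptors Cd200r1 and Sirpa had ratios of 3.46 (3.17 to 3.79) and 2.41 (2.35 to 2.47). Lilrb4a had a ratio of 3.37 (3.24 to 3.50), uncertain because of close copies. The macrophage marker sum was 2.07 times as high in the GANT61 library beside these genes.

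Below the receptors, 3 of 9 signalling genes were called higher and 0 lower, with a median log2 ratio of 0.39. They were the lipid phosphatase Inpp5d at 2.22 (2.13 to 2.31), the kinase Fyn at 1.73 (1.66 to 1.81) and the adaptor Pag1 at 1.72 (1.58 to 1.87). With macrophage marker scaling they were at 1.17, 0.916 and 0.907, none of them called. The tyrosine phosphatases Ptpn6 and Ptpn11, which PD-1 can recruit, had ratios of 1.31 (1.27 to 1.36) and 1.16 (1.13 to 1.19).

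The lists for known inducers of the PD-1 ligands differed in their counts. The 15 genes listed for interferon gamma were Ifng, its receptors, signalling kinases and factors, and response genes. Of them 1 was called higher and 0 lower, beside 14.1% and 10.3% of all genes, with a median log2 ratio of 0.21. The called gene was Cxcl10, a chemokine, at 1.56 (1.48 to 1.63), or 0.822 when scaled to macrophage markers. Ifng, the gene of interferon gamma, had a ratio of 1.20 (1.03 to 1.40). Of 16 IL-4 receptor and response genes 12 were called higher and 0 lower, with a median of 1.14. Irf4, a factor of the IL-4 response, had 892 and 2314 reads, a ratio of 2.86 (2.64 to 3.09), near that of Cd274. The ratios in this list ran from 1.02 (0.997 to 1.03) for Retnla to 5.54 (5.46 to 5.62) for Mrc1. Besides Retnla, the genes not called were Jak3 at 1.06 (1.02 to 1.10), Il13ra1 at 1.25 (1.21 to 1.28) and Stat6 at 1.25 (1.21 to 1.29). Several of these 16 are also macrophage genes, and the macrophage marker median was 0.92 beside them.

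**Figure D5:**
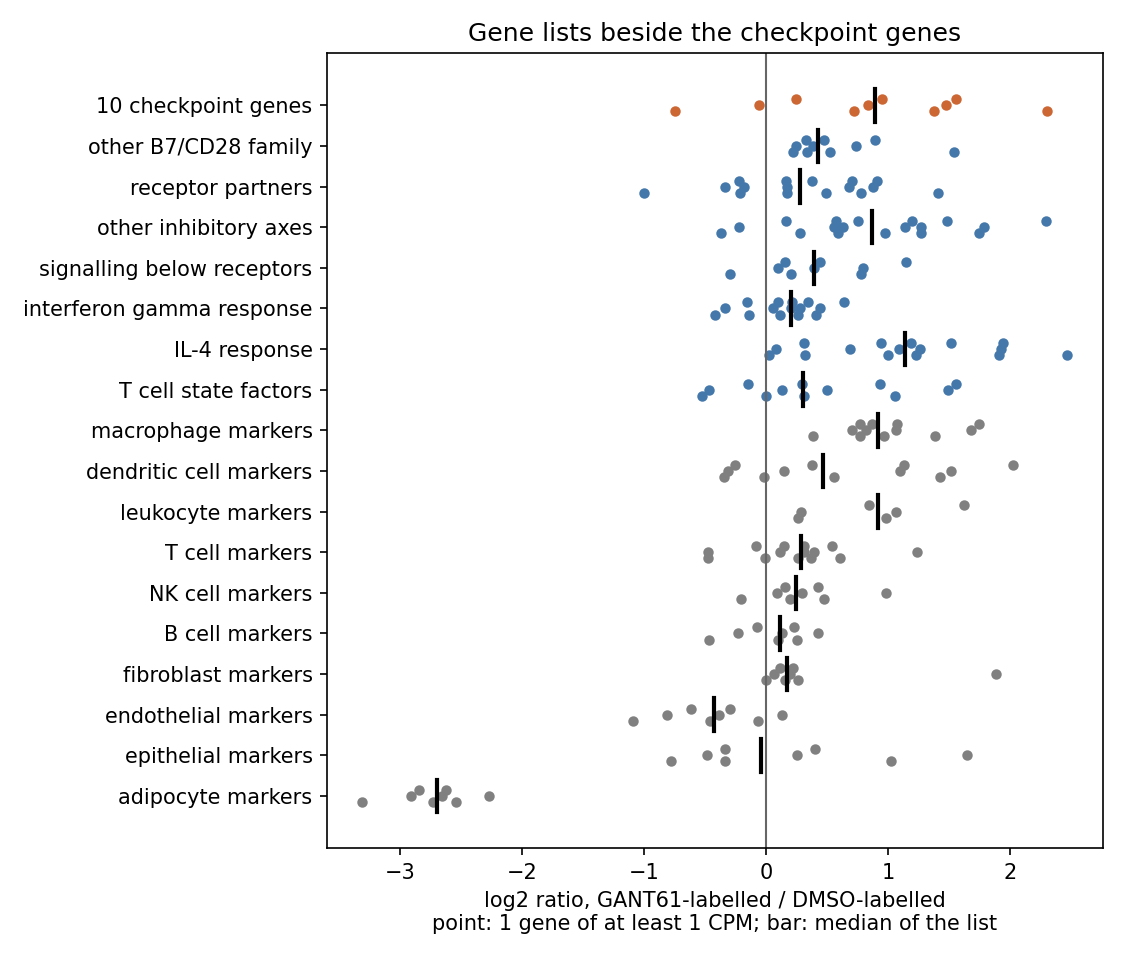
Log2 of the GANT61 over DMSO ratio for every gene of at least 1 CPM in the checkpoint set (top row), 7 related lists and 10 lists of cell markers, with 1 point per gene and a black bar at each median. The checkpoint genes spread from -0.74 to 2.31 around a median of 0.90, close to the macrophage and leukocyte marker medians of 0.92 and above the T cell marker median of 0.29, and the adipocyte markers lie farthest left around -2.69; scaled to macrophage markers, all points would shift left by 0.92 and Cd86, Havcr2 and Lag3 would fall below 0.

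The genes closest to a checkpoint gene were sought over the 2 libraries by Euclidean distance in log2 CPM, a measure that uses 2 values per gene. Nearest to Pdcd1lg2 were Ccl12, Acod1 and Npl, at distances of 0.20, 0.20 and 0.21. Nearest to Cd274 were Slc20a1, Itgax and Syk, at 0.12, 0.13 and 0.13. Itgax, the integrin CD11c of dendritic cells and macrophages, was at 60.7 and 174 CPM. Nearest to Cd80 were Fam169b, Col23a1 and Bbox1, to Cd86 Plcl2, Evi2b and Maff, to Havcr2 Trim56, Foxm1 and Bcl2a1a, and to Cd276 Brd7, Aldh9a1 and Setd7. Ccl12 and Bcl2a1a have close copies, which makes their values uncertain.

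The other checkpoint genes were set beside their neighbours in the same way. Cd80 and Cd86 lie on chromosome 16 at 38457430 to 38495958 and 36568956 to 36666158. The genes next to Cd80, Adprh and Timmdc1, had ratios of 1.11 (1.06 to 1.17) and 0.913 (0.850 to 0.981), and neither was called. Beside Cd86, Ildr1, a tricellular junction protein, was called higher at 1.88 (1.62 to 2.19), and Casr was under 1 CPM. Lag3 lies beside Cd4 on chromosome 6, at a distance of 16112 bases, and Cd4 was called higher while Lag3 was not. Beside Cd276 on chromosome 9, Nptn, a cell adhesion molecule, had a ratio of 0.941 (0.920 to 0.963), near that of Cd276, and Insyn1 on the other side was at 0.769 (0.634 to 0.930).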

How the data were processed

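RNA was sequenced from 1 library per treatment. The authors deposited expected counts per gene, not normalized, and RPKM values, 1 column per library. The submitters' processing notes name Partek, cutadapt, STAR, SAMtools and HISAT2, with builds hg19 and mm10. Which did what, and the annotation, read counter and strand setting, is not given in the sources used here. Columns were tied to libraries by the treatment in their names.

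Expected counts were rounded and scaled by TMM (edgeR 4.0.16, R 4.3.3). Ratios used a prior count of 0.5 per library and exact Clopper-Pearson intervals (scipy 1.17.1). Proportions between genes used exact conditional intervals, and RPKM intervals were exact Poisson. Without molecular identifiers reads can be PCR copies, so the intervals cover counting error only. A count of 0 allows up to 3 reads, or 0.0479 CPM (DMSO) and 0.0528 CPM (GANT61). The ratio code was tested on simulated data.

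The members, lists and alternatives were chosen with earlier results of these data known. Of 201 listed genes 1, Pvrig, had no row, and an item withheld for evaluation is not reported here. Named were all members, up to 6 called genes or else the 2 most abundant of each related list, the 2 most abundant of each marker list and the 3 nearest genes; some of these are not printed. Cd3e, Cd4, Cd8a, Cd8b1, Cd28, Cd226, Tox, Tox2, Lgals9, Fgl1, Ptpn6, Ptpn11, Ifng, Cd5, Ikzf2 and the neighbouring genes were named after their values were seen. So were Retnla, Jak3, Il13ra1 and Stat6. Alternatives were DESeq2 size factors (DESeq2 1.42.0), library totals, upper quartiles, marker-based scalings, RPKM, other floors, folds and prior counts.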

Additional observations from a re-analysis of the deposited data

How the results depend on the processing

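The 10 checkpoint ratios kept their direction and their call with DESeq2 size factors, library totals, upper quartile factors, deposited RPKM values, a prior count of 2 and unrounded counts. Across these, Pdcd1lg2 ranged from 4.80 to 4.95 and Pdcd1 from 0.580 to 0.599. A floor of 5 CPM or no floor left the 7 higher and 1 lower calls as they were. With a fold of 2, 4 checkpoint genes were called higher and 0 lower, the 7 related lists together went from 41 higher and 1 lower to 24 and 0, and the 10 marker lists from 26 higher and 12 lower to 16 and 9. The share of all genes called at a fold of 2 was not computed, so these counts have no background beside them. With the macrophage or the leukocyte marker median set to 0, which moves every ratio down alike, 2 checkpoint genes were higher and 3 lower, the related lists had 10 higher and 41 lower, and the marker lists 7 and 56. Of all genes, 3.19% were then higher and 76.4% lower with macrophage markers, and 3.24% and 76.2% with leukocyte markers. Lag3, not called by TMM, went to 0.628 and 0.630 and was called lower, while Cd274 (1.47 and 1.48), Cd80 (1.37 and 1.38) and Tigit (1.02 and 1.03) lost their calls. Among the members, the genes named by rule and the nearest genes, the ratios called by TMM that crossed 1 under these scalings were, with macrophage and then leukocyte markers, Havcr2 0.942 and 0.946, Cd86 0.87 and 0.873, Bcl2a1a 0.915 and 0.918, C1qa 0.966 and 0.969, Cd101 0.879 and 0.882, Clec4g 0.973 and 0.976, Cxcl10 0.822 and 0.824, Evi2b 0.863 and 0.865, Foxm1 0.91 and 0.913, Fyn 0.916 and 0.919, Lgals3 0.995 and 0.998, Maff 0.851 and 0.854, Nectin1 0.862 and 0.865, Pag1 0.907 and 0.91, Plcl2 0.89 and 0.893, Ptprc 0.95 and 0.953, Pvr 0.905 and 0.908, Treml2 0.981 and 0.984, and Trim56 0.924 and 0.927. Cd5, Ric1 and Ildr1, named after their values were seen, were not listed there. Their TMM ratios of 1.53, 1.61 and 1.88 were no larger than that of Lgals3, so they would cross 1 too. With T cell markers, a scaling added after the data were seen, 5 checkpoint genes were higher and 1 lower, against 8.37% and 23.6% of all genes, the related lists had 30 higher and 7 lower, and the marker lists 19 and 22. Havcr2 at 1.46 and Cd86 at 1.35 then lost their calls, and Lag3 was at 0.974. Without Fscn1 in the dendritic cell sum, also added then, Cd86 relative to it went from 1.22 to 0.807. Every scaling of this kind assumes that its markers did not differ per cell. No paired analysis was possible because each treatment has 1 library, and for that reason no library could be left out.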
